A study of Mus musculus with 18 samples.

Results

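Plekhf1 and Plekhf2 are the mouse genes for the phafins, a pair of small proteins that bind phosphoinositides on endosomes. They are 2 of the 57180 gene rows of the deposited table, and both were among the 16738 genes with enough counts to be tested. The pair was chosen on measured values of these mice, because Plekhf1 fell stepwise from control to defeated to exercised defeated mice. The Plekhf1 levels by group are therefore given as a description, with no test, and Plekhf2, taken in as the paralog, was tested. The libraries came from the hippocampus of adolescent male wild-type C57BL/6J mice, 1 library per mouse and 6 mice per group. Control mice had no treatment. CSDS mice went through chronic social defeat stress, in which a mouse is repeatedly exposed to an aggressive resident and which serves as a model of depression-like behaviour. In the last group the mice went through the same defeat and also did aerobic training, which began 1 week ahead of the defeat and went on during it; these are called exercised mice below. Trained mice without defeat are not part of the 3 groups, so training is compared here only within defeated mice.

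Each phafin carries a pleckstrin homology (PH) domain followed by a FYVE domain, a zinc-binding fold that recognises phosphatidylinositol 3-phosphate (PI3P), the lipid that marks early endosomes and forming autophagosomes. PI3P is made mainly by the lipid kinase Vps34 and is removed by myotubularin phosphatases or converted further by the kinase PIKfyve. Plekhf1 (phafin1, also called LAPF) has been linked to lysosomes, autophagy and cell death when overexpressed, and Plekhf2 (phafin2, also called EAPF) to early endosome fusion and receptor traffic. In neurons, endosomes of this kind recycle or degrade receptors at synapses.

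In the GENCODE M21 annotation of GRCm38, the build named in the submitters' processing notes, Plekhf1 (ENSMUSG00000074170) lies on the minus strand at chr7:38216972-38228016. Its 5263 nt transcript has 2 exons, and the 840 nt coding sequence for 279 residues lies in exon 2, followed by a 3′ UTR of 4331 nt. Plekhf2 (ENSMUSG00000049969) lies on the minus strand at chr4:10988662-11007676 with a 2977 nt main transcript, also of 2 exons, whose 750 nt coding sequence in exon 2 encodes 249 residues and whose 3′ UTR is 1929 nt. A second Plekhf2 model of 668 nt has the same arrangement of 2 exons. Translated and aligned, the 2 proteins shared 138 of 243 aligned residues (56.8%). The part of the coding sequence that makes the pair what it is, the basic core of the FYVE domain, is printed here from the GENCODE M21 transcripts for residues 159 to 188 of each protein, 90 bases read 5′ to 3′, at chr7:38221579-38221668 and chr4:10990777-10990866 on the minus strand, both in exon 2. The capitals mark the codons of residues 171 to 176, the arginine-arginine-histidine-histidine-cysteine-arginine motif that contacts PI3P.
Plekhf1: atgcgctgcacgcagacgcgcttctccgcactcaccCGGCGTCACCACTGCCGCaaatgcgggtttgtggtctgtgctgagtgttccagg
Plekhf2: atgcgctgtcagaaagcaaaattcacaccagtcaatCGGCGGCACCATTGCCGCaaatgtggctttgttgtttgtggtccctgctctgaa
The motif occurred once in each protein and at the same residue numbers. In the window, 19 of 30 residues and 59 of 90 bases (65.6%) were identical, and 20 codons differed, 9 of them without changing the residue.

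The 2 sequences differ in base composition. GC made up 63.3% of the Plekhf1 window and 50% of the Plekhf2 window, and at the last position of the codons over the whole coding sequence the share was 72.5% against 48.4%. The longest stretch shared by the main transcripts was 17 nt, too short to fit a sequencing read of usual length to both. All 36 deposited values of the pair were whole numbers, as when no read is divided between genes, whereas 22.7% of the nonzero values in the table were not whole.

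**Figure D1:**
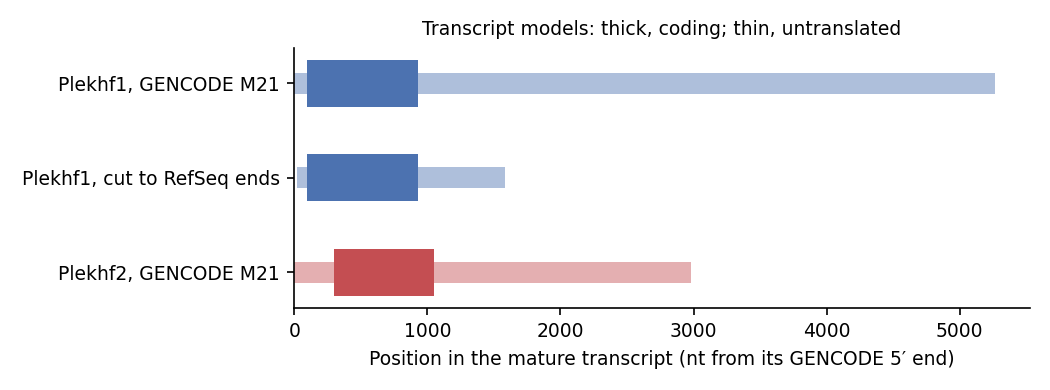
Mature transcripts of Plekhf1 and Plekhf2, in nucleotides from the GENCODE 5′ end, with the coding part thick and the untranslated parts thin. The Plekhf1 transcript is drawn at its GENCODE length of 5263 nt and cut to the ends of the RefSeq gene (1559 nt), which removes most of its 3′ UTR and leaves it shorter than Plekhf2 (2977 nt).

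Plekhf1, the member on whose values the pair was chosen, was highest in control mice, lower in CSDS mice and lowest in exercised mice. In CPM, the count of the gene scaled to the size of its library (TMM method), control mice ran from 5.17 through a median of 6.69 to 9.23, with a mean of 6.87 ± 1.36 (SD, n = 6). CSDS mice ran from 3.38 through 4.35 to 5.5, with a mean of 4.44 ± 0.707 (SD, n = 6). Exercised mice ran from 2.59 through 3.68 to 4.19, with a mean of 3.55 ± 0.619 (SD, n = 6). Every exercised mouse lay below every control mouse, and 5 of 6 CSDS mice lay below the lowest control; only CSDS replicate 6, at 5.5, was above it. CSDS and exercised mice overlapped, although 5 of 6 CSDS mice lay above the highest exercised mouse. The counts behind these levels were 122 to 221 reads in control, 74 to 121 in CSDS and 50 to 90 in exercised mice.

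As log2 fold changes from the edgeR fit, Plekhf1 differed by -0.63 ± 0.15 (SE) in CSDS against control, a level 0.647 times that of control. The difference was -0.32 ± 0.16 in exercised against CSDS mice (0.8 times) and -0.95 ± 0.16 in exercised against control mice (0.518 times). The last value spans both of the others, since the comparisons share groups. In hippocampal tissue, fewer cells that express a gene and less RNA per cell cannot be told apart. Control replicate 4, with 9.23 CPM, was the highest mouse of all; without it the difference was -0.52 in CSDS against control and -0.85 in exercised against control mice. The pooled SD of log2 CPM within groups was 0.25, beside the differences of -0.63 from control to CSDS and -0.32 from CSDS to exercised mice.

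The Plekhf2 means of the 3 groups differed by less than the spread between mice. Its CPM ran from 6.44 through 7.76 to 8.81 in control mice (mean 7.67 ± 0.854, SD, n = 6). In CSDS mice it ran from 5.82 through 6.61 to 9.72 (mean 7.12 ± 1.41, SD, n = 6). In exercised mice it ran from 6.45 through 7.66 to 9.36 (mean 7.66 ± 0.978, SD, n = 6). The control and exercised ranges lay inside the wider CSDS range, and 2 CSDS mice lay below the lowest control. Both the highest mouse (CSDS replicate 4) and the lowest (CSDS replicate 6) were CSDS mice.

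**Figure D2:**
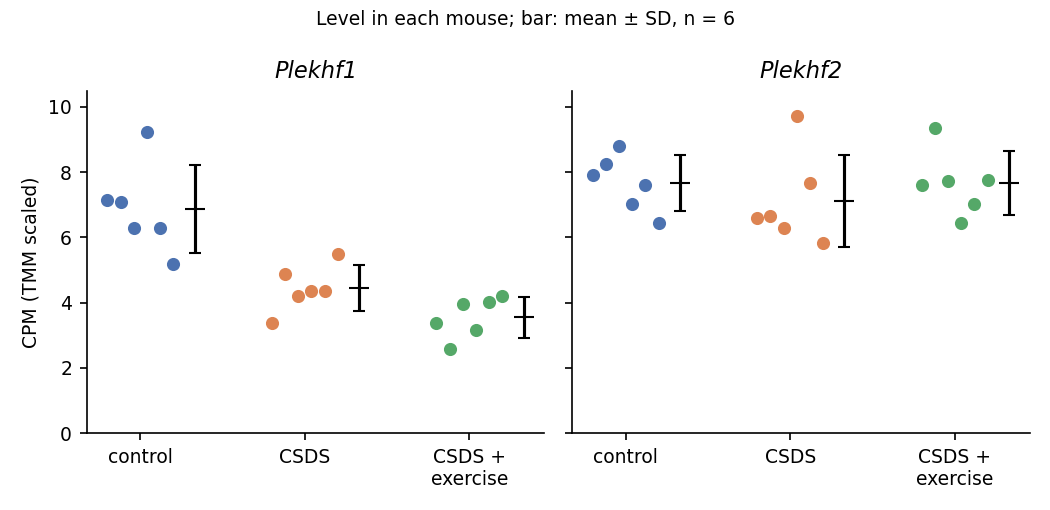
CPM of Plekhf1 (left) and Plekhf2 (right) in each of the 18 mice by group, in replicate order, with bars for the mean ± SD (n = 6). The exercised mice sit at 2.59 to 4.19 for Plekhf1, below all control mice. The Plekhf2 points of the 3 groups overlap, and those of CSDS mice spread the most (5.82 to 9.72).

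Tested by edgeR's quasi-likelihood test with Benjamini-Hochberg adjustment over all genes, Plekhf2 passed in no comparison. Its log2 difference in CSDS against control was -0.11 ± 0.13 (SE; 95% interval -0.38 to 0.16; edgeR adjusted p = 0.993). In exercised against CSDS mice it was 0.10 ± 0.13 (-0.17 to 0.37; edgeR adjusted p = 0.709), and in exercised against control mice -0.00 ± 0.13 (-0.27 to 0.27; edgeR adjusted p = 0.994). As folds, these intervals run from 0.77 to 1.12, from 0.891 to 1.3 and from 0.828 to 1.2. Whether the 2 genes differ from each other in their response was not tested, because Plekhf1 was picked for its response.

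Of the 2 members, 0 were called at an adjusted p under 0.05 in CSDS against control and 0 in exercised against CSDS mice, where 0% of all genes were called in each. In exercised against control mice 1 of 2, Plekhf1, was called, beside 0.0179% of all genes (3 of 16738); the choice of the gene used this contrast, and nothing is read from the call. That call was made under 5 of 13 other processing settings and with 3 of 18 single libraries left out (control replicate 6, CSDS replicate 6 or exercised replicate 4). For scale, 0.562% of the genes tested had no overlap between exercised and control mice, as Plekhf1 did; the share was 0.239% for CSDS against control and 0.89% for exercised against CSDS mice.

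The ratio of the 2 genes' counts in 1 library needs no scaling to library size. It is not free of differences between libraries in how gene levels follow GC content, given below. The 2 genes differ in that content (53.8% for Plekhf1 and 45.1% for Plekhf2), and its part in the ratio was not tested. Plekhf1 gave 0.903 ± 0.211 reads per Plekhf2 read in control mice (0.715 to 1.32, n = 6). The ratio was 0.646 ± 0.179 in CSDS mice (0.448 to 0.945, n = 6) and 0.473 ± 0.105 in exercised mice (0.276 to 0.572, n = 6). Exercised mice again lay apart from control mice, and CSDS mice overlapped both groups. Only control replicate 4 had more Plekhf1 than Plekhf2 reads. The ratio takes in the Plekhf1 values the pair was chosen on, so it too is a description.

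By mean CPM over the 18 mice, Plekhf1 (4.95) ranked 11797 and Plekhf2 (7.48) 10794 among the 16738 genes tested, with 29.5% and 35.5% of those genes below them. Per kilobase of transcript, the order of the pair over all 18 mice rests on where Plekhf1 ends. With the GENCODE transcript, the Plekhf1 level was 0.941 ± 0.323 CPM per kb (SD, n = 18) and below the 2.51 ± 0.361 of Plekhf2. With the transcript cut to the RefSeq gene (chr7:38220654-38227994), which lacks 3682 nt of the 3′ end, Plekhf1 was at 3.18 ± 1.09 CPM per kb and the order of these means turned. By group it turned in control mice (Plekhf1 4.41, Plekhf2 2.58) and CSDS mice (2.85 and 2.39). In exercised mice Plekhf1 stayed below Plekhf2 with either end (0.675 or 2.28, against 2.57). Which 3′ end the hippocampus uses cannot be read from gene counts, so the level of one phafin over the other is not settled in control and CSDS mice. The fold changes between groups are within a gene and do not rest on length.

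Across single mice no relation between the phafins passed a test. Log2 CPM of Plekhf1 and Plekhf2 had a Pearson r of -0.03 over 18 mice (permutation p = 0.903, adjusted p = 0.972 over 14 relations; Spearman rho 0.07, p = 0.781), and the deviations from the group means had an r of -0.17 (permutation p = 0.516, adjusted 0.795). Without the 2 mice farthest from the median, r was 0.06.

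Plekhf2 varied with several properties of the libraries. The GC slope of a library is how its gene levels, relative to the mean of all libraries, change with transcript GC content, in log2 units per 10 percentage points. It was 0.05 ± 0.15 (SD, n = 6) in control, 0.12 ± 0.18 in CSDS and -0.16 ± 0.21 in exercised mice. Plekhf2 transcripts had a median GC content of 45.1%, against a median of 50.5% for the genes tested, and Plekhf1 53.8%. Plekhf2 fell with the slope (r = -0.65, permutation p = 0.00363, adjusted 0.0127; rho = -0.69, permutation p = 0.0019), did so within groups (r of the deviations -0.70, permutation p = 0.00282, adjusted 0.0127), and did so without the 2 libraries farthest from the median slope (r = -0.75). It rose with the share of mitochondrially encoded counts (r = 0.70, permutation p = 0.00116, adjusted 0.0127; rho = 0.73, permutation p = 0.00097; deviations from group means r = 0.69, permutation p = 0.00273; r = 0.76 without the 2 farthest libraries). Such relations were common: 15.9% of all genes tested had an r with the slope at or below that of Plekhf2, and 13.9% had an r with the mitochondrial share at or above it.

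No such relation passed for Plekhf1. Its r with the GC slope was 0.29 (permutation p = 0.24, adjusted 0.42; rho = 0.33), and -0.01 for the deviations from group means (adjusted permutation p = 0.979). With the mitochondrial share r was -0.04 (adjusted permutation p = 0.972) and with the total count 0.37 (permutation p = 0.129, adjusted 0.259). For Plekhf2 against the total count r was -0.41 (permutation p = 0.0905, adjusted 0.211; rho = -0.47, permutation p = 0.052). For the deviations from group means r was -0.46 (permutation p = 0.0496, adjusted 0.139) and rho -0.59 (permutation p = 0.0146, adjusted 0.0408), so only the rank relation within groups passed.

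Plekhf2 also varied with the summed levels of cell type markers, on the log2 scale, in a separate family of 52 relations (each phafin with 13 lists, over the 18 mice and within groups) computed after the values were seen. It was lower where CA1 pyramidal markers were higher (r = -0.66, permutation p = 0.00303, adjusted 0.1; rho = -0.79, permutation p = 0.00015, adjusted 0.0078; r = -0.75 without the 2 farthest mice), and within groups too (r = -0.62, adjusted permutation p = 0.1; rho = -0.73, adjusted permutation p = 0.0234). With oligodendrocyte precursor markers r was -0.61 (adjusted permutation p = 0.1; rho = -0.69, adjusted permutation p = 0.025), and with dentate granule markers r was -0.39 (adjusted permutation p = 0.369; rho = -0.77, adjusted permutation p = 0.00806). With thalamic markers r was 0.40 (adjusted permutation p = 0.369; rho = 0.64, adjusted permutation p = 0.0488). With red blood cell markers r was 0.58 (adjusted permutation p = 0.122), and 0.25 without the 2 farthest mice, on which that relation rests. After adjustment the rank relations with CA1, dentate, oligodendrocyte precursor and thalamic markers passed over the 18 mice, those with CA1 and dentate markers passed within groups, and no Pearson r passed. For Plekhf1 neither measure passed with any of the 13 lists, with r between -0.35 and 0.37 over the 18 mice. Within groups its r ran from -0.50 for mural cell and fibroblast markers to 0.43 for oligodendrocyte markers (adjusted permutation p = 0.285 and 0.369). For the mural cell and fibroblast markers rho within groups was -0.53 (permutation p = 0.0443, adjusted 0.192). The marker sums, the GC slope and the mitochondrial share come from the same libraries, and the part of each in the Plekhf2 level was not tested.

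**Figure D3:**
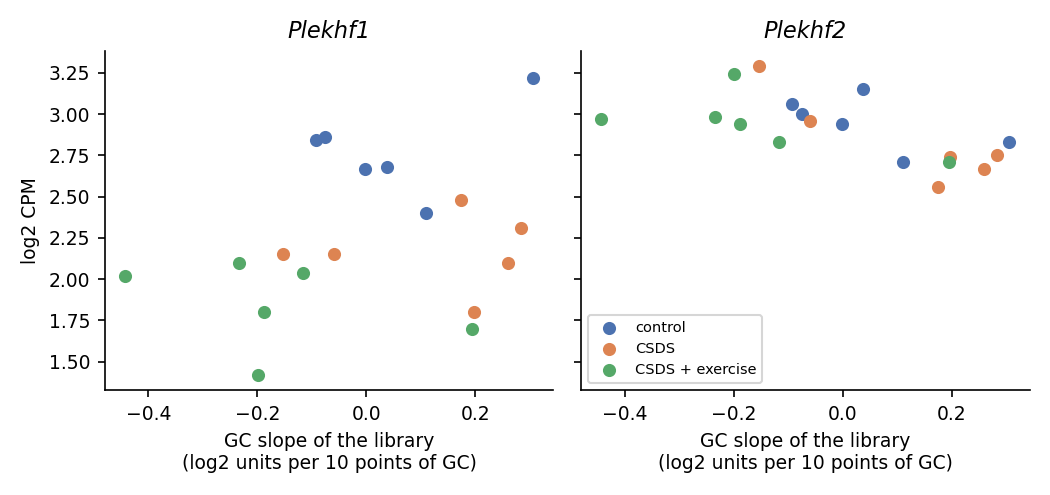
Log2 CPM of Plekhf1 (left) and Plekhf2 (right) against the GC slope of the library, 1 point per mouse, coloured by group. Plekhf2 is lower in libraries with a higher slope (r = -0.65), and the r of Plekhf1 is 0.29. The Plekhf1 levels of exercised mice lie below those of all control mice, but the slopes of these groups overlap only in part. They run from -0.09 to 0.31 in control and from -0.44 to 0.19 in exercised mice.

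When the smooth of each library on GC content was taken out, the Plekhf1 differences were -0.62 ± 0.17, -0.31 ± 0.17 and -0.93 ± 0.17 in CSDS against control, exercised against CSDS and exercised against control mice. With the Plekhf1 transcript cut to its RefSeq end, which has a GC content of 56.6%, the corrected values were -0.65, -0.21 and -0.86. The size of the step from CSDS to exercised mice thus depends on the annotated end. The direction of Plekhf2 in exercised against CSDS mice turned, from 0.10 to -0.15 ± 0.13 (edgeR adjusted p = 0.975). In exercised against control mice it became -0.23 ± 0.13 (edgeR adjusted p = 0.58). Plekhf2 passed the test with neither fit, and its sign in the 2 comparisons with exercised mice is not determined by these data. Under this correction the median over all genes moved as well, to -0.06, -0.04 and -0.10 in the 3 comparisons, and the Plekhf2 values lie -0.15 against -0.04 and -0.23 against -0.10 beside it.

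**Figure D4:**
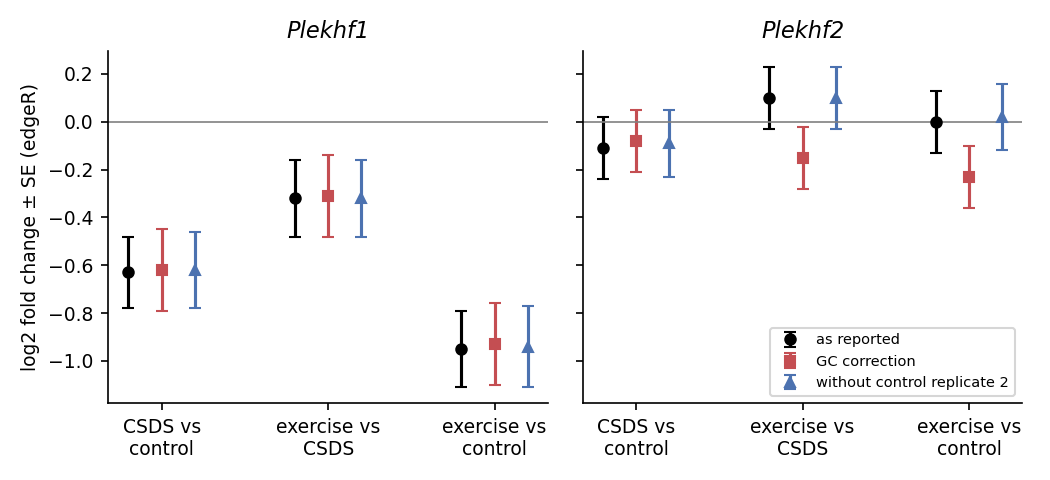
Log2 fold changes ± SE of Plekhf1 (left) and Plekhf2 (right) in the 3 comparisons as reported (circles), after the GC correction (squares) and without control replicate 2 (triangles). The 3 Plekhf1 values of each comparison coincide within their errors. In exercised against CSDS mice the circle and triangle could hardly differ, as control replicate 2 is in neither group. Plekhf2 lies below 0 in both comparisons with exercised mice only after the GC correction.

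The libraries held 18911080 to 24136591 estimated counts, with mitochondrially encoded genes at 1.71% to 5.1%, and the same batch label on all. Hippocampal identity was checked with 13 marker lists for neurons, glia, vessels, blood and neighbouring tissue; no listed marker was at 0 in every library, and dentate granule and CA1 pyramidal markers were present. Control replicate 2 stood apart, with the dentate markers Prox1 at 10.4 CPM (83.5 to 145 in the other 17 libraries) and C1ql2 at 0.408 CPM (40.7 to 142), and the neocortical markers Lamp5 at 259 CPM (25.7 to 42.8) and Tbr1 at 164 CPM (29.4 to 58.9). The 5 dentate markers summed to 149 CPM in it, against 335 to 396 CPM in the other controls. Most of the 149 CPM thus came from Dsp, Calb1 and Tdo2, so the dentate list did not fall evenly. Thalamic markers were high in 4 other libraries: they summed to 259 and 510 CPM in control replicates 1 and 3 and to 309 and 682 CPM in exercised replicates 3 and 6, against 57.1 to 114 CPM in the other libraries. The Plekhf1 level of these 4 was 7.15, 6.3, 3.97 and 4.19 CPM. Without these 4 and control replicate 2, which leaves 3 control, 6 CSDS and 4 exercised mice, Plekhf1 differed by -0.63 ± 0.20, -0.43 ± 0.19 and -1.07 ± 0.22 in CSDS against control, exercised against CSDS and exercised against control mice. Plekhf2 differed by 0.02 ± 0.17, 0.10 ± 0.15 and 0.12 ± 0.18 (edgeR adjusted p = 0.999, 0.835 and 0.788), so its sign turned in both comparisons with control. The Plekhf1 level of control replicate 2, 7.08 CPM, lay inside the range of the other controls, and without that mouse the control mean was 6.83 CPM. The summed level of 0 of 13 lists separated any pair of groups, with or without control replicate 2. Choroid plexus markers summed to 18.2 to 5430 CPM in control, 91.8 to 8380 in CSDS and 61.9 to 6490 in exercised mice. The medians were 3700, 997 and 1450 CPM, and without control replicate 2 the control range was 2570 to 5430 CPM. Over the 18 mice, r with these markers was 0.08 for Plekhf1 and 0.13 for Plekhf2 (adjusted permutation p = 0.855 for each). The part of choroid plexus tissue in the group differences of the 2 phafins was not tested.

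Around the phafins, 123 genes of endosomal PI3P biology were followed in 6 lists, of which 121 were tested (Rufy4 and Pik3c2g had too few counts). At an adjusted p under 0.05 in edgeR, 0 of 121 were called in each of the 3 comparisons. In exercised against CSDS mice, limma voom with quality weights called 50 of 121, beside 5567 of 16738 genes. At an unadjusted p under 0.05 voom gave 60 of 121 (49.6%), beside 44.6% of all genes, so a high count was general under this method. Without exercised replicate 4, edgeR called 1 of 121, beside 625 of 16856 genes. At an unadjusted p under 0.05 in edgeR with all 18 libraries, 1 of 121 (0.826%) stood below its control level in CSDS against control, beside 3.51% of all genes tested. In exercised against CSDS mice it was 11 of 121 (9.09%; 10 higher, 1 lower), beside 15.6% of all genes, and in exercised against control mice 5 of 121 (4.13%; 3 higher, 2 lower), beside 11.2%. The count in exercised against CSDS mice rests on single libraries: it was 2 (1.65%) without exercised replicate 3, 27 (22.3%) without CSDS replicate 4 and 38 (31.4%; 16 higher, 22 lower) without exercised replicate 4, beside 10.1%, 21.4% and 26.3% of all genes. Without exercised replicate 4 it was 27 (22.3%) in exercised against control mice, beside 20.9%. Of the single lists, the PI3P phosphatases and PIKfyve enzymes had a higher share than all genes in CSDS against control (1 of 18, 5.56%, beside 3.51%). They also did in exercised against CSDS mice (4 of 18, 22.2%, beside 15.6%). Pikfyve and Mtmr1, among these 4, were at 0.00 and -0.05 after the GC correction. In a list this short single genes make the share, and nothing is read from it. The median log2 fold change of the 121 genes was -0.04, 0.02 and -0.01, against 0.00, 0.02 and 0.01 over all genes.

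Among the other FYVE domain genes, 27 of 28 were tested and none passed the adjusted test in edgeR with all 18 libraries. In CSDS against control, Zfyve9, the receptor anchor SARA, had the smallest p (log2 difference -0.21 ± 0.10, edgeR adjusted p = 0.993; -0.10 without control replicate 2), and Fgd2, an exchange factor for Cdc42, the next (0.39 ± 0.23). Rufy2, a RUN and FYVE domain protein of endosomes, stood at 43.8 ± 4.62 CPM in exercised mice (SD, n = 6), 36 ± 3.31 in CSDS and 37.5 ± 4.11 in control mice. Its log2 difference was 0.28 ± 0.09 in exercised against CSDS mice (edgeR adjusted p = 0.211) and 0.23 ± 0.09 against control (edgeR adjusted p = 0.37). Its relative Rufy1, a partner of recycling Rab GTPases, differed by -0.16 ± 0.07 in exercised against control mice (edgeR adjusted p = 0.372). The FYVE genes thus had single members on either side of 0, and their medians were -0.02, -0.01 and -0.02 in the 3 comparisons.

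None of the enzymes that make PI3P passed the adjusted test in edgeR. Pik3c3, the catalytic subunit Vps34, differed by -0.07 ± 0.06 in CSDS against control, and Uvrag, a subunit of its endosomal complex, by -0.06 ± 0.08; without control replicate 2 these were -0.04 and -0.03. Pik3c2a, a class II kinase, differed by 0.34 ± 0.15 in exercised against CSDS mice (edgeR adjusted p = 0.288) and Rubcn, an inhibitor of the Vps34 complex, by -0.17 ± 0.12. Neither Pik3c2a (0.24 ± 0.15) nor Rubcn (-0.19 ± 0.12) passed in exercised against control mice. Among the enzymes that remove or convert PI3P, Mtmr7, a myotubularin phosphatase, gave the only unadjusted p under 0.05 in CSDS against control (-0.17 ± 0.08, edgeR adjusted p = 0.993), and Mtmr14, a phosphatase of the same family, followed at -0.11 ± 0.08. Pikfyve, the kinase that adds a further phosphate to PI3P, was at 49.4 ± 7.66 CPM in exercised and 42 ± 2.92 in CSDS mice, a log2 difference of 0.23 ± 0.09 (edgeR adjusted p = 0.265). Mtmr1, another myotubularin, differed by 0.18 ± 0.08 in the same comparison (edgeR adjusted p = 0.278). Against control, Pikfyve (0.19 ± 0.09) and Mtmr1 (0.15 ± 0.08) were closer to 0.

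Of the endosomal Rab GTPases and their partners, Rabep2, a rabaptin that acts with Rab4 and Rab5, had the largest deficit in exercised against CSDS mice (-0.44 ± 0.15, edgeR adjusted p = 0.219) among the genes named by the rule, and Rin3, a Rab5 exchange factor, differed by -0.41 ± 0.20. In exercised against control mice Rab11b, a GTPase of recycling endosomes, differed by -0.18 ± 0.07 (edgeR adjusted p = 0.37; -0.12 without control replicate 2) and Appl1, a Rab5 adaptor, by 0.30 ± 0.14 (edgeR adjusted p = 0.436). In CSDS against control Rabgef1, the Rab5 exchange factor Rabex-5, and Rab31, a GTPase of the Rab5 group, both differed by -0.14, and Rab31 by -0.09 without control replicate 2. Of the sorting machinery, Vps37a, an ESCRT-I subunit, differed by 0.35 ± 0.14 and Stam, of ESCRT-0, by 0.20 ± 0.09 in exercised against CSDS mice (edgeR adjusted p = 0.261 and 0.288). The median of the 22 sorting genes was 0.15 in that comparison, with 18 of 22 above 0, against a median of 0.02 over all genes. It was -0.07 in CSDS against control, with 3 of 22 above 0, and 0.08 in exercised against control mice, with 14 of 22. The CSDS mice are part of both the 0.15 and the -0.07. These values are from the fit without GC correction, and the corrected median of this list was not computed. With the correction Vps37a and Stam were at 0.03 and -0.06, and the median of the 121 genes of all lists was -0.07, beside -0.04 over all genes. Tsg101 (-0.19 ± 0.13) and Snx5 (-0.15 ± 0.13), also of the sorting machinery, had the smallest p of this list in CSDS against control, but were at -0.11 and -0.02 without control replicate 2, and Snx2, a sorting nexin, differed by 0.13 ± 0.08 in exercised against control mice. In the autophagosome list, Rb1cc1, a subunit of the initiating kinase complex, differed by 0.33 ± 0.16 and Atg4b, the protease that processes LC3, by -0.13 ± 0.06 in exercised against CSDS mice. Map1lc3b, which encodes LC3B, was at -0.15 ± 0.10 in CSDS against control, and at -0.04 without control replicate 2. Map1lc3a in exercised against control mice (-0.22 ± 0.13, and -0.09 without control replicate 2) and Wdr45b, a PI3P-binding WIPI protein (-0.11 ± 0.07 in CSDS and -0.14 ± 0.07 in exercised mice, each against control), did not pass either.

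The values of several of these genes depended on the GC correction, as that of Plekhf2 did. After the GC correction the exercised against CSDS difference was 0.00 for Pikfyve, -0.04 for Pik3c2a, -0.05 for Mtmr1, 0.03 for Vps37a, -0.06 for Stam and -0.07 for Rb1cc1, all genes with a transcript GC content between 39.7% and 45.7%. It was 0.14 for Rufy2 (46.8% GC) and -0.31 for Rabep2 (58.3% GC). In exercised against control mice the sign turned for Pik3c2a (from 0.24 to -0.20), Vps37a (from 0.27 to -0.14), Appl1 (from 0.30 to -0.01), Mtmr1 (from 0.15 to -0.06) and Snx2 (from 0.13 to -0.01), and Map1lc3a was at -0.06. With the correction the unadjusted count was 4 of 121 (3.31%) in exercised against CSDS mice, beside 5.04% of all genes, and all 4 were lower. In exercised against control mice it was 15 of 121 (12.4%), beside 9.65% of all genes, and all 15 were lower. The correction also moved the median of all genes below 0 in this comparison, to -0.10, beside -0.13 for the 121 list genes. How many of all genes with such a p were lower was not counted, so nothing is read from the direction.

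**Figure D5:**
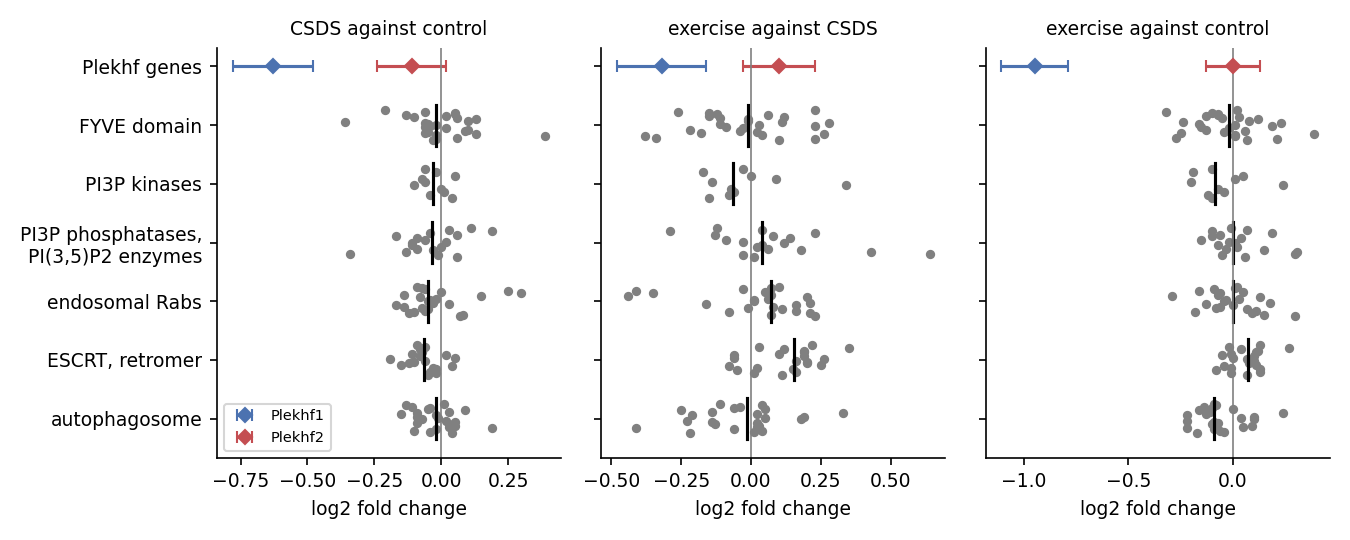
Log2 fold changes of Plekhf1 and Plekhf2 (diamonds, ± SE) above those of the genes tested in 6 lists of endosomal and autophagy genes (grey points, 1 per gene, spread vertically for legibility; black bars, medians) in the 3 comparisons, each with its own horizontal scale. No list gene passed the adjusted test in edgeR with all 18 libraries. In these values, which have no GC correction, the largest shift of a list median is the 0.15 of the sorting list in exercised against CSDS mice. That list is at -0.07 in CSDS against control and 0.08 in exercised against control mice.

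None of the tested genes nearest the phafins passed the adjusted test in edgeR in any comparison. Next to Plekhf1, Pop4, a subunit of ribonuclease P (34.8 kb away), differed by -0.05 ± 0.11 in CSDS against control and 0.04 ± 0.11 in exercised against control mice. Ccne1, which encodes cyclin E1 (113 kb away), differed by -0.22 ± 0.11 and -0.16 ± 0.11 (edgeR adjusted p = 0.993 and 0.615), and Uri1, a prefoldin-like protein, by -0.01 ± 0.10 and 0.08 ± 0.10. Zfp939, a zinc finger gene, had too few counts to be tested. Next to Plekhf2, Ndufaf6, an assembly factor of respiratory complex I (41.4 kb away), differed by -0.09 ± 0.19 and -0.07 ± 0.19. Trp53inp1, a stress-induced regulator of autophagy (149 kb away), differed by 0.34 ± 0.17 in exercised against CSDS mice (edgeR adjusted p = 0.323), Asph, a hydroxylase, by 0.09 ± 0.08, and Gdf6, a secreted growth factor, was not tested.

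The genes whose log2 CPM followed each phafin most closely were taken from 13386 named genes with a mean of at least 1 CPM, as a description over the 18 mice, which share depth and GC slope within a library. For Plekhf1 they were Tmem238, a small membrane protein (r = 0.83), Sgk1, a stress- and steroid-responsive kinase (r = 0.79), Arl4d, a small GTPase of the Arf family (r = 0.78), Zbtb7b, a zinc finger transcription factor (r = 0.74) and Prpsap1, a partner of phosphoribosyl pyrophosphate synthetase (r = 0.73). Sgk1 stood at 151 ± 32.3 CPM in control, 86.4 ± 18 in CSDS and 79.5 ± 22 in exercised mice (SD, n = 6 each), and Arl4d at 18.1 ± 8.37, 9.34 ± 1.61 and 8.22 ± 2.23. Once the group means were taken out, these r were between 0.37 and 0.51, so much of the likeness lies in the group levels on which Plekhf1 was chosen. For Plekhf2 they were Rer1, a retrieval receptor of the endoplasmic reticulum and Golgi (r = 0.88), Pdcd6, the calcium-binding protein ALG-2 that works with ESCRT proteins (r = 0.85), Tomm22, a mitochondrial import receptor (r = 0.84), Dnajc9, a J-domain co-chaperone (r = 0.83) and Camkmt, a calmodulin methyltransferase (r = 0.83). Here the r of the deviations from group means stayed between 0.83 and 0.88. All 5 have a transcript GC content of 46.4% to 49.6%, below the 50.5% median. Of the 5 genes like Plekhf1, Sgk1 is at 48.6% and the others are at 55% to 60.2%, above that median. The part of the GC slope in the likeness to either phafin was not tested.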

How the data were processed

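One poly(A)-enriched, stranded RNA-seq library was made from each of 18 mice. The authors deposited 1 table of expected counts (estimated counts that need not be whole) per gene and library, not normalized; fastp, HISAT2, RSEM and GRCm38 (mm10) are named in the submitters' processing notes, with versions, annotation release and strand setting not stated there. Without the strand setting, reads of overlapping antisense genes cannot be told apart. Of 57180 rows, 51884 could be given a symbol.

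Counts were rounded and tested with edgeR 4.0.16 in R 4.3.3: filterByExpr (minimum count 10, total 15), TMM, and the quasi-likelihood test with 1 term per group over all 18 libraries, at an adjusted p of 0.05 over 16738 genes. Log2 CPM used a prior count of 2. Permutation p-values are two-sided, from 100000 resamples. Scripts were tested on simulated data. The members, the lists and the rule for named genes (2 genes per list and comparison by smallest p, 5 most correlated, 2 neighbours on each side) were chosen with earlier results of these data known. Transcript models, sequences and GC content come from GENCODE M21, and the second Plekhf1 end from RefSeq on GRCm38.p6. The release the authors counted with may differ. Groups came from the sample titles. All 45 replicate pairs differed beyond sampling noise. Alternatives were DESeq2 1.42.0, limma 3.58.1 voom with quality weights, other scalings and filters, only the groups compared, the replicate block, a GC correction (a smooth of span 0.3 per library as an offset), 1 surrogate variable (sva 3.50.0) and each library left out; the GC correction with the RefSeq end of Plekhf1, leaving out the libraries with over 2 times the median of neocortical or thalamic markers, and the relations with cell type markers were added after seeing the data.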

Additional observations from a re-analysis of the deposited data

Results flagged for a closer look

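Dixon's test for a mouse far from the other 5 of its group was applied to 57 sets of 6 values, and 9 were marked; chance marks about 1 in 20. Among the values of the phafins, the ratio of Plekhf1 to Plekhf2 reads in control replicate 4 was 1.32, with the next control at 0.903. Control replicate 2 was far from the other controls in the summed CPM of dentate granule cell markers (149, next 335), neocortical markers (604, next 140), pan-neuronal markers (7290, next 5310) and red blood cell markers (237, next 115). Exercised replicate 4 was far out in microglia markers (497, next 376). Exercised replicate 6 was far out in oligodendrocyte markers (9900, next 6990) and red blood cell markers (304, next 128). The total count of CSDS replicate 5 was 19552899, below the next at 21535857. Plekhf1 in these mice was 9.23 CPM (control replicate 4), 7.08 (control replicate 2), 3.16 (exercised replicate 4), 4.19 (exercised replicate 6) and 4.35 (CSDS replicate 5), and in none of them was the Plekhf1 or Plekhf2 level itself marked.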

How the results depend on the processing

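The 3 Plekhf1 differences kept their sign in all 31 alternatives run and moved by less than the pooled SD within groups, 0.25. That limit is wide beside the -0.32 of exercised against CSDS mice. Over 13 settings they ran from -0.67 to -0.62, -0.43 to -0.21 (the GC correction with the RefSeq end) and -1.07 to -0.86. With 18 single libraries left out they ran from -0.70 to -0.52, -0.39 to -0.25 and -1.02 to -0.85. All reuse the values Plekhf1 was chosen on, so they are no further support for its fall. Some could hardly move a value: leaving out any control mouse kept exercised against CSDS mice at -0.32. Plekhf2 passed under none of the alternatives; its lowest adjusted p was 0.0546, in exercised against CSDS mice under voom (0.26). The Plekhf2 difference in that comparison turned to -0.15 with the GC correction, -0.13 with the replicate block added and -0.01 with 1 surrogate variable. The RefSeq end changes only the GC content given to Plekhf1, so that setting repeats the -0.15. In exercised against control mice Plekhf2 turned to 0.03 under voom. Without the 5 libraries rich in thalamic or neocortical markers it turned to 0.12, and to 0.02 in CSDS against control. Leaving out 1 library gave -0.07 to 0.04 in exercised against control mice, turning in 5 of 18 cases. The ranges were -0.22 to -0.06 in CSDS against control and 0.04 to 0.21 in exercised against CSDS mice. Called list genes in exercised against CSDS mice were 50 of 121 under voom, when 5567 of 16738 genes were called. DESeq2 called 0 list genes and 150 of all genes. With a library left out, 0 to 1 of 121 were called (1 without exercised replicate 4, when 625 of 16856 genes were called). The replicate numbers do not pair the mice: 1 of 18 same-number correlations was over 0.1, with a median of -0.10, and a mouse correlated best with its own number in 2 of 36 cases. With the replicate block, Plekhf1 differed by -0.63, -0.32 and -0.95 and Plekhf2 by -0.11, 0.11 and -0.00. The sign of 3 weak relations changed: Plekhf1 with the GC slope within groups (0.01 under RLE scaling and 0.01 without control replicate 2), with Plekhf2 (0.00 with plain library size) and with the total count within groups (-0.03 with plain library size). The cause was not tested for any of these. Depth limits Plekhf1 to 50 to 221 reads per library.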
